A study of Mus musculus with 3 samples.

Results

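The 7 genes described here, Ms4a4a, Ms4a4c, Ms4a6b, Ms4a6c, Ms4a6d, Ms4a7 and Ms4a14, are macrophage members of the Ms4a cluster of mouse chromosome 19. They were taken by symbol, and each of the 7 was found in all 3 libraries among 55536 annotated genes. They are 7 of the 19 annotated genes whose symbols begin Ms4a, or 7 of 21 when the related genes Tmem176a and Tmem176b are included. Total RNA of the chromatin fraction was sequenced after ribosomal depletion from bone-marrow-derived macrophages, primary cells of the mouse strain C57BL/6J. The cells had been exposed to Lipid A, the membrane anchor of bacterial lipopolysaccharide and the ligand of its receptor TLR4, at 100 ng/ml for 12 h, kept without it for 12 h, and given 100 ng/ml again for 15 min. All 3 libraries, biological replicates 1, 2 and 3, belong to this 1 group, and no unstimulated cells were analysed here. A single donor identifier is given for all of them and separate animals are not mentioned, so the spread between libraries may be partly technical, and per the labels age and sex were not collected.

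The MS4A proteins cross the membrane several times with both ends in the cytoplasm, and many of them sit beside immune receptors and alter their signalling. The best known are CD20 on B cells, which Ms4a1 encodes, and the beta chain of the high-affinity IgE receptor on mast cells, which Ms4a2 encodes. Several other genes of the cluster are expressed in monocytes, macrophages and microglia, and in humans variants in the cluster are associated with the risk of Alzheimer's disease and with the level of soluble TREM2. Chromatin RNA holds nascent transcripts and transcripts not yet released, so its levels do not stand for levels of cytoplasmic mRNA or of protein.

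The sequences just upstream of the genes differed from each other except in 1 pair. RefSeq promoter windows (GRCm38.p6, 250 bases before to 50 after the start) were found for 6 of the 7 genes, with 7 windows in all, and none was matched for Ms4a6d. The windows of Ms4a6b and Ms4a6c are shown because they were the one closely related pair, with 85.9% identity over 220 aligned bases and a longest exact run of 48 bases. The 14 other pairs, with the first of the Ms4a7 windows, had 55.3 to 65.7% identity and no exact run over 9 bases. Capitals mark the 2 runs of at least 12 bases that both windows share, 72 bases in all, and both lie on the plus strand, at chr19:11518309-11518608 and chr19:11469118-11469417:
Ms4a6b: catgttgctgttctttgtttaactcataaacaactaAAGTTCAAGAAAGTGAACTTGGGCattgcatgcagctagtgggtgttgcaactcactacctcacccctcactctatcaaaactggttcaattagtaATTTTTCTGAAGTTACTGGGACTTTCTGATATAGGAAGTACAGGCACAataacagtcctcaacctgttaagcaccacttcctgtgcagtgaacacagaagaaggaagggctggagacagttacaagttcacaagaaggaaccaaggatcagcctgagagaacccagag
Ms4a6c: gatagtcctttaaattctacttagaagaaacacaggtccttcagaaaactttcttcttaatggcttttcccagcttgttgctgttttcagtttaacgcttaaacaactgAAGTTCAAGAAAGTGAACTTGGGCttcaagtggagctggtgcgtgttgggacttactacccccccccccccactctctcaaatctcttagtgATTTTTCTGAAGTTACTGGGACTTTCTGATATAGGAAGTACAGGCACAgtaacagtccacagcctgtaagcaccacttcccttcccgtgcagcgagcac

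The windows of Ms4a14 and Ms4a4a are shown because they hold a match to a motif of a factor that acts downstream of TLR4. Capitals mark an AP-1 motif (TGANTCA, where N is any base) that begins 32 bases before the Ms4a14 start, on the minus strand at chr19:11314405-11314704, and an NF-kB motif (GGGA and TTCC with 2 bases of any kind between them) that begins 247 bases before the Ms4a4a start, on the plus strand at chr19:11375238-11375537:
Ms4a14: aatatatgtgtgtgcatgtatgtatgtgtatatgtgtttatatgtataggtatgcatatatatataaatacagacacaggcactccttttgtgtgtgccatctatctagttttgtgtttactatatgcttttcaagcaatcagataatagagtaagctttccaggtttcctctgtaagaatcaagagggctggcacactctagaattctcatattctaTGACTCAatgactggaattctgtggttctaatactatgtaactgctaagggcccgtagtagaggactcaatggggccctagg
Ms4a4a: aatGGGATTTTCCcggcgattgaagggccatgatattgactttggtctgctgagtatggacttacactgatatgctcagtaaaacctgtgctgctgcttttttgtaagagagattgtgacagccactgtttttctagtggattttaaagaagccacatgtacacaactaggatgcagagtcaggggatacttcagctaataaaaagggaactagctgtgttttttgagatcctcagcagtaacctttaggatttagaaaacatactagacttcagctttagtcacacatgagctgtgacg

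Both strands were searched for these motifs and for an interferon-stimulated response element (GAAA and GAAA, 2 bases apart), an ETS-IRF composite element (GGAA and GAAA, 2 bases apart) and a PU.1 motif (GAGGAAGT). AP-1 also matched the second of 2 Ms4a7 windows, 81 bases before its start, and no other match was found in the 7 windows. The start of that second window lay 1451 bases from the GENCODE gene start, inside the annotated gene. Over 32851 RefSeq windows of the same length the motifs were present in 7.81% (AP-1), 1.47% (NF-kB), 3.44% (interferon-stimulated response element), 2.72% (ETS-IRF) and 3.20% (PU.1). The interferon element and the ETS-IRF element share most of their letters and can overlap. The RefSeq start lay 2891 bases from the GENCODE gene start for Ms4a4c and 2047 bases for Ms4a6b, so those windows describe an internal start of the annotated gene, and 0, 2, 35 and 0 bases from it for Ms4a7 (first window), Ms4a6c, Ms4a4a and Ms4a14.

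All 7 genes carried chromatin RNA. Each had a mean of at least 1 TPM (a length-scaled share of transcripts, that is, a count divided by the effective length and scaled to a fixed total per library) in the alignment-based gene table, against 48.4% of 22028 protein-coding genes, and did so in the read-based table too, against 59.6%. Together they held 1358, 851 and 976 TPM in replicates 1, 2 and 3 in the gene table. Their share of the TPM of the 21 family genes was 93.9 ± 1.09% (SD, n = 3) there and 86.2 ± 1.05% in the read-based table. In the gene table Ms4a7 alone took 35.8 ± 2.77% of the summed TPM of the 7 genes, Ms4a14 21.7 ± 0.904%, Ms4a6b 16.5 ± 0.585% and Ms4a6c 12.5 ± 0.887%. Replicates 1, 2 and 3 held 14609979, 17423948 and 24162551 expected counts, and 15873 genes, all 7 included, had a mean of 10 or more expected counts, the limit for calling a gene detected. With 1 group there was no contrast between conditions to test, and an exact sign test over 3 libraries cannot give a p below 0.25, so values are given with their spread and without p.

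Ms4a7, in mice a marker of border-associated and monocyte-derived macrophages that resting microglia largely lack, was the highest of the 7. The gene (ENSMUSG00000024672.11, minus strand, 11321039 to 11336146 on chromosome 19 of mm10) had 445, 311 and 372 TPM in replicates 1, 2 and 3, from 15412, 13259 and 20467 expected counts. Its mean of 376 ± 67.0 TPM (SD, n = 3) ranked 66 among 11755 detected protein-coding genes. The read-based table gave nearly the same mean, 392 ± 81.6 TPM.

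Ms4a14 (ENSMUSG00000099398.1, minus strand, 11301249 to 11314454) is the neighbour of Ms4a7 and was the second highest. It had 301, 176 and 218 TPM in replicates 1, 2 and 3, from 14503, 10538 and 16507 expected counts, with a mean of 232 ± 63.7 TPM (SD, n = 3). The read-based table placed it lower, at 180 ± 50 TPM. Ms4a14 had 1 annotated transcript and shared no stretch of 50 bases with the transcripts of any other gene, so neither isoforms nor near-identical copies divide its reads.

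Ms4a6b and Ms4a6c, the pair with related promoter windows, followed. Ms4a6b (ENSMUSG00000024677.13, plus strand, 11516512 to 11531256) had 223, 145 and 155 TPM, a mean of 175 ± 42.4 TPM (SD, n = 3). Ms4a6c (ENSMUSG00000079419.4, plus strand, 11469366 to 11482192) had 170, 114 and 113 TPM, a mean of 132 ± 32.3 TPM (SD, n = 3). The ratio of Ms4a6b to Ms4a6c was the steadiest between neighbours in the order, at 0.40, 0.35 and 0.45 on the log2 scale in the 3 libraries. The level of Ms4a6c is uncertain, because BE692007, a non-coding gene on the opposite strand, overlaps it over 12027 bases and had 70.0 ± 16.6 TPM (SD, n = 3) itself. Of the 50-base windows of the Ms4a6c transcripts, 49.6% were found in BE692007 on the opposite strand and 5.85% in Ms4a6b. The expected counts of Ms4a6c were fractional (1621, 1233 and 1686), but its sum with BE692007 was a whole number in 3 of 3 libraries within 0.02 (4535, 3868 and 5105), and Ms4a6c was given 35.7, 31.9 and 33% of it. Relative to the library's total, that sum was 1.45-fold higher in replicate 1 than in the mean of replicates 2 and 3. The TPM of Ms4a6c was 1.49-fold higher, but TPM is scaled by transcript length and the sum is not, so these folds are not directly comparable. The sources used here do not say if reads were counted by strand. The whole sums show that reads were divided between these 2 genes on opposite strands, so strand did not separate all of them. The level of Ms4a6c may therefore include reads of BE692007.

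Ms4a4c, a gene common among markers of mouse classical monocytes in single-cell data, was the most variable of the 7. It (ENSMUSG00000024675.19, plus strand, 11404770 to 11427246) had 148, 57.5 and 71.2 TPM in replicates 1, 2 and 3, a mean of 92.2 ± 48.7 TPM (SD, n = 3). Replicate 1 thus stood far above both others. The gene shared 7.73% of its 50-base windows with Ms4a4b, a family gene known in mouse T cells. The summed expected counts of the pair were whole in 3 of 3 libraries, at 3466, 2380 and 2982, and Ms4a4c was given 51.8, 43.4 and 51.0% of them. The sum does not depend on that division between the pair. Relative to the library's total, it was 1.84-fold higher in replicate 1 than in the mean of replicates 2 and 3. The TPM of Ms4a4c was 2.30-fold higher. These folds are not directly comparable, because TPM is scaled by transcript length and the sum is not.

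Ms4a6d and Ms4a4a were the lowest of the 7. Ms4a6d (ENSMUSG00000024679.10, minus strand, 11586604 to 11604849) had 42.5, 25.4 and 23.0 TPM, a mean of 30.3 ± 10.6 TPM (SD, n = 3). Ms4a4a, whose protein associates with the beta-glucan receptor Dectin-1 in macrophages (ENSMUSG00000101389.1, plus strand, 11375523 to 11392790), had 28.7, 22.1 and 22.9 TPM, a mean of 24.6 ± 3.61 TPM (SD, n = 3). Its 225, 202 and 268 expected counts were the fewest of the 7. The authors' table lists intervals around its own second estimate. They were apart in replicate 1 (35.9 to 43.8 TPM for Ms4a6d, 22.9 to 29.8 TPM for Ms4a4a) and overlapped in replicate 2 (21.2 to 27.7 and 17.7 to 23.3 TPM) and in replicate 3 (20.0 to 24.6 and 19.1 to 24.2 TPM).

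**Figure D1:**
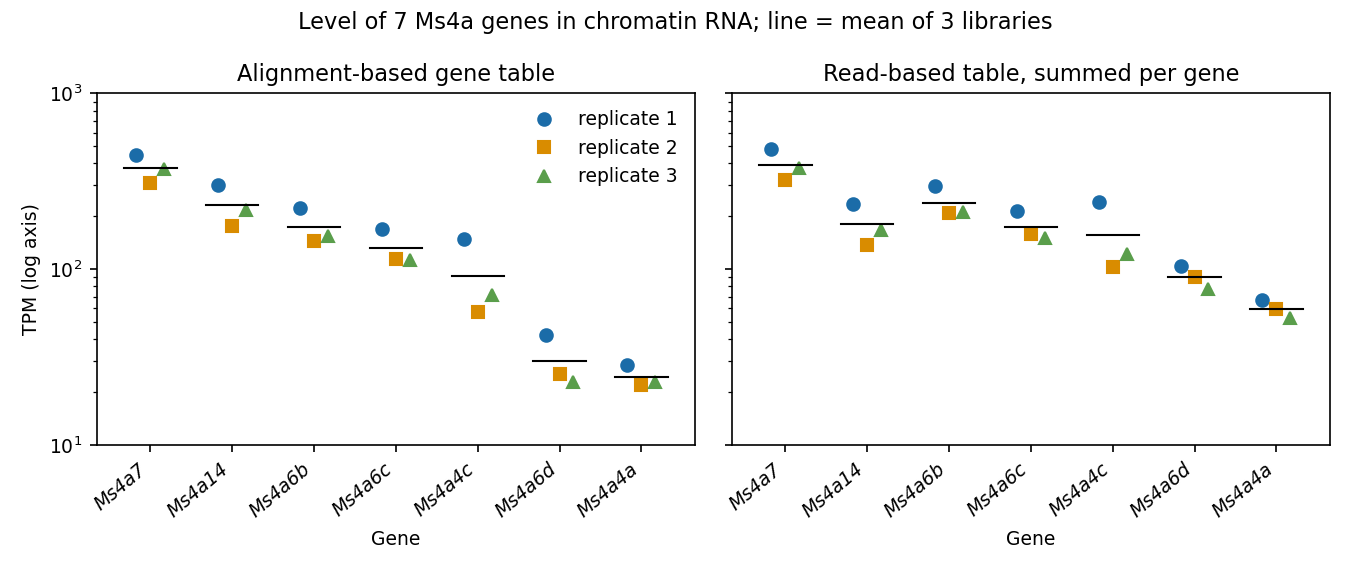
TPM of the 7 genes (log axis) in the alignment-based gene table, left, and in the read-based table summed per gene, right, with 1 marker per library and a line at the mean of the 3. Ms4a7 leads in both panels at 376 and 392 TPM, replicate 1 is the highest marker of every gene, and Ms4a6d and Ms4a4a lie at 30.3 and 24.6 TPM on the left and at 90.8 and 59.9 TPM on the right.

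The order Ms4a7, Ms4a14, Ms4a6b, Ms4a6c, Ms4a4c, Ms4a6d, Ms4a4a held in each of the 3 libraries in the gene table. The widest step was from Ms4a4c to Ms4a6d, a log2 ratio of 1.54 ± 0.32 (SD, n = 3). Ms4a7 exceeded Ms4a14 by 0.72 ± 0.14, Ms4a14 exceeded Ms4a6b by 0.40 ± 0.11, and Ms4a6c exceeded Ms4a4c by 0.62 ± 0.40 on the log2 scale, each a mean above its SD. Ms4a6d and Ms4a4a did not differ beyond the spread, at 0.26 ± 0.28. By the read-based values 5 of the 7 genes had the same place, with Ms4a6b at 239 ± 51.4 TPM above Ms4a14. There Ms4a14 and Ms4a6c (0.02 ± 0.21), and Ms4a6c and Ms4a4c (0.25 ± 0.40), could not be ordered beyond the spread, whereas Ms4a6d exceeded Ms4a4a by 0.60 ± 0.04 (log2, SD, n = 3).

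The tables disagreed most for the lowest genes. Read-based TPM was 3.13 times the gene-table value for Ms4a6d and 2.45 times for Ms4a4a, 2 of 7 genes at a ratio of at least 2, against 20.7% of 11717 detected protein-coding genes. The ratio was 1.72 for Ms4a4c, 1.38 for Ms4a6b, 1.33 for Ms4a6c, 1.04 for Ms4a7 and 0.778 for Ms4a14. The median ratio over those protein-coding genes was 1.32. For Ms4a4a the estimated read-based counts were 819, 975 and 1062, or 4.14 times the expected counts, against a median count ratio of 1.73.

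The detected Ms4a genes were neighbours in the cluster. Between 11301249 and 11604849, a stretch of 304 kb, 9 genes have an Ms4a symbol, the 7 together with Ms4a4b and Ms4a4d, and 9 of 9 were detected, at means of 8.72 to 376 TPM. On the side of lower coordinates none of 8 Ms4a genes (Ms4a10, Ms4a15, Ms4a18, Ms4a8a, Ms4a13, Ms4a12, Ms4a1 and Ms4a5) was detected, with at most 8 expected counts in any library and a highest mean of 0.17 TPM. On the other side Ms4a2 and Ms4a3 were not detected, with at most 3 counts, and Ms4a3, known from granulocyte and monocyte progenitors, had 0 counts in each library, which allows up to 3. The read-based table gave 3 of those 8 lower-coordinate genes a mean of at least 1 TPM, with Ms4a12 highest at 9.67 ± 1.42 TPM (SD, n = 3) against 0.0333 ± 0.0577 TPM in the gene table. Of the genes without an Ms4a symbol, 6 of 8 within the block, 3 of 7 on the side of lower coordinates and 0 of 1 on the other side were detected, against 28.6% of all annotated genes. The highest of those 3 was the non-coding gene AW112010 at 26.4 ± 13.2 TPM (SD, n = 3), so detected RNA was not confined to the block.

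Ms4a4b, the adaptor-like family gene of T cells, had 80.2, 46.8 and 40.1 TPM in replicates 1, 2 and 3, a mean of 55.7 ± 21.5 TPM (SD, n = 3), between Ms4a4c and Ms4a6d. The read-based table placed it higher, at 235, 134 and 131 TPM, and its mean there of 167 ± 59.0 TPM was above the 156 ± 74.5 TPM of Ms4a4c. Ms4a4d had 13.4, 7.13 and 5.65 TPM. Outside the cluster, on chromosome 6, Tmem176b had 3.41, 4.23 and 2.62 TPM and Tmem176a 1.84, 2.03 and 1.29 TPM. Both Ms4a4b and Ms4a4d were highest in replicate 1 in both tables. Neither Tmem176 gene was in the gene table, but Tmem176a was in the read-based table, at 2.51, 2.36 and 1.46 TPM.

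**Figure D2:**
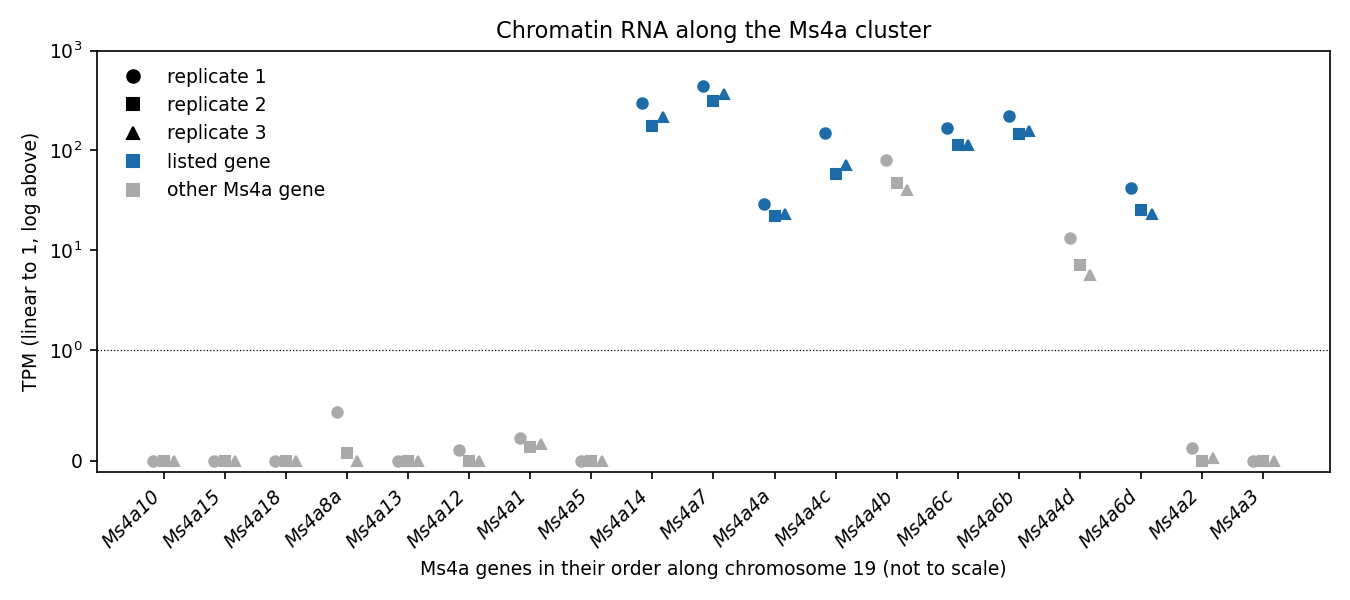
TPM of the 19 Ms4a genes in their order along chromosome 19 (spacing not to scale; the axis is linear up to the dotted line at 1 TPM and logarithmic above it), with 1 marker per library and the 7 listed genes in blue. The 9 genes from Ms4a14 to Ms4a6d have means of 8.72 to 376 TPM, and the 10 genes on either side stay at or under a mean of 0.17 TPM.

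The cell types in which other Ms4a genes are best known were checked by their markers. All 8 macrophage markers had at least 1 TPM, led by Adgre1 at 330 ± 55.6 TPM (SD, n = 3), and their summed level was 829, 819 and 729 TPM in replicates 1, 2 and 3. The 5 B cell markers summed to 0.410, 0.460 and 0.370 TPM, with Ms4a1 at 0.157 ± 0.0404 TPM, and 0 of 5 reached 1 TPM. The 5 mast cell and basophil markers summed to 0.840, 0.110 and 0.390 TPM, and the 4 granulocyte progenitor markers to 0.130, 0.2 and 0.0900 TPM. The T cell list summed to 80.2, 46.9 and 40.1 TPM, nearly all of it Ms4a4b, while Cd3e was at 0 in 3 of 3 libraries and Cd3g had a mean of 0.0100 TPM. Cd3d had 0.0167 ± 0.0289 TPM in the gene table but 15.2 ± 2.43 TPM (SD, n = 3) in the read-based table, lowest in replicate 1 at 12.4. Cd3g had 1.19 ± 0.185 and Cd3e 0.126 ± 0.0751 TPM in the read-based table (SD, n = 3). The T cell list summed to 248, 152 and 149 TPM there, most of it Ms4a4b. The read-based table listed more of these markers: Ms4a1 had 1.06 ± 0.235, the mast cell gene Kit 1.05 ± 0.147 and the granulocyte progenitor gene Mpo 1.91 ± 0.270 TPM there (SD, n = 3). The B cell markers then summed to 1.53, 1.28 and 1.59 TPM, the mast cell and basophil markers to 2.40, 1.64 and 2.73 TPM, and the granulocyte progenitor markers to 2.03, 2.76 and 2.05 TPM. In a bulk sample, fewer cells of a type and less RNA per cell cannot be told apart.

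Much of the RNA assigned to Ms4a7, Ms4a6b and Ms4a6c lay in transcripts annotated with a retained intron. Of the 7 genes 4 have such a transcript, and in 3 of these 4 it held over 50% of the gene's TPM, against 44.5% of 6584 expressed protein-coding genes with such a transcript, whose median share was 46.8%. In the read-based table the same 3 genes were over 50%, against 43.8%. A count of 3 of 4 is too few to be set apart from that background. The tables count reads against annotated transcripts, so an intron that no annotated transcript holds is not measured here.

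In Ms4a7 the transcript Ms4a7-205 took 72.3, 71.8 and 73.6% of the TPM in replicates 1, 2 and 3. Its share of the expected counts was 88.9 ± 0.466% (SD, n = 3), and the coding transcript Ms4a7-203 held 22.8 ± 0.980% of the TPM. In the read-based table the TPM share of Ms4a7-205 was 52.6 ± 2.48% and that of Ms4a7-203 14.4 ± 2.35%, and the leading coding transcript was Ms4a7-202 at 20.8 ± 4.22%, against 0.434 ± 0.264% in the alignment-based table (SD, n = 3). Ms4a7-205, of 3607 bases, keeps introns 5 and 6 of the coding transcript Ms4a7-201 in full, 2021 and 716 bases. These introns make up 56.0 and 19.9% of the length of Ms4a7-205. The ends of both introns are shown because they are the exon-intron borders this transcript reads through, with intron bases in capitals, on the minus strand of mm10 (GENCODE M21 transcript), at chr19:11324407-11324436, chr19:11322386-11322415, chr19:11322284-11322313 and chr19:11321568-11321597:
Ms4a7 intron 5 start: tatgtcggtgctatgGTAAGTACTTCCAGA
Ms4a7 intron 5 end: TGTGCTGCTTTGCAGagtgctctggggatg
Ms4a7 intron 6 start: tccaacaaacctgggGTAAGTACCTGATAT
Ms4a7 intron 6 end: AATTTTATTCTTTAGggtacatttttcttg

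In Ms4a6b 2 retained-intron transcripts together took 94.1, 94.2 and 93.7% of the TPM, and the coding transcript Ms4a6b-205 took 6.00 ± 0.243% (SD, n = 3). Ms4a6b-203, of 4286 bases, had 5355, 4259 and 5804 of the expected counts, and the short Ms4a6b-202, of 429 bases, 292, 199 and 272, with TPM shares of 46.6 ± 0.436% and 47.4 ± 0.524% (SD, n = 3). The read-based table set those shares apart, at 27.1 ± 1.05% for Ms4a6b-203 and 65.8 ± 1.07% for Ms4a6b-202. Ms4a6b-202 keeps no intron in full and reaches only 50 bases into intron 4 of Ms4a6b-205. Its share therefore does not measure RNA that holds a whole intron. Ms4a6b-203 keeps intron 6 of Ms4a6b-205 in full, 1676 bases or 39.1% of its length. Its ends are shown for the same reason as above, with intron bases in capitals, on the plus strand at chr19:11526883-11526912 and chr19:11528559-11528588:
Ms4a6b intron 6 start: aagtctgttctggctGTAAGTATTTCTAAA
Ms4a6b intron 6 end: TTCTCCTGAATTTAGggagtcttttcactg

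Because BE692007 overlaps Ms4a6c, the retained-intron share of Ms4a6c may include reads of BE692007. For Ms4a6c the share also depended on the measure. Its retained-intron transcript Ms4a6c-202 took 72.4 ± 2.26% of the TPM (SD, n = 3) but 39.8 ± 2.65% of the expected counts, since it has 639 bases against 1841 for the coding transcript Ms4a6c-201, and it reaches only 209 bases into intron 3. In Ms4a6d the retained-intron share was 12.3, 17.5 and 7.53% of the TPM, and the coding transcript Ms4a6d-201 led at 86.4 ± 3.82%. The read-based table gave 39.5 ± 2.94% and 44.5 ± 2.08% for the same transcripts of Ms4a6d. Ms4a4c has no retained-intron transcript, and its leading transcript changed with the table, from Ms4a4c-201 at 68.6 ± 7.91% to the 361-base Ms4a4c-203 at 59.1 ± 3.57%. Ms4a4a and Ms4a14 have 1 annotated transcript each.

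**Figure D3:**
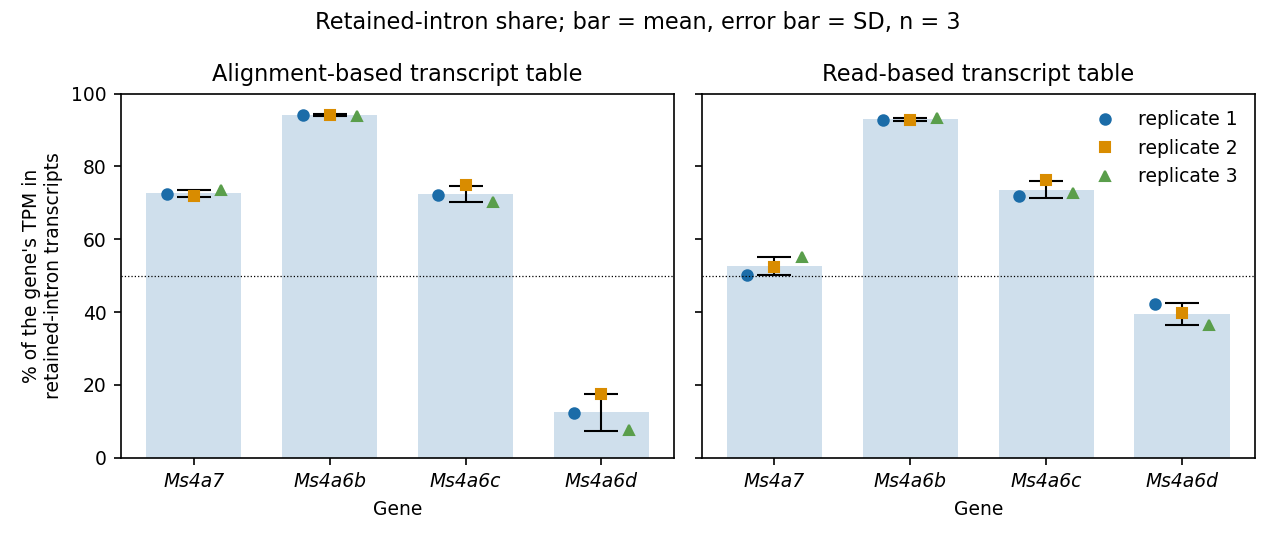
Share of the TPM in retained-intron transcripts for the 4 genes that have one, as bars at the mean with SD (n = 3) and 1 marker per library, in the alignment-based table, left, and the read-based table, right, with a dotted line at 50%. Ms4a6b stands at 94.0 and 92.9%, Ms4a7 falls from 72.6 to 52.6% between the tables, and Ms4a6d is under 50% in both.

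The 7 genes were all highest in the same library. In 7 of 7 replicate 1 was the highest library, against 38.9% of the 15873 detected genes, and this count was 7 in the read-based table too, against 37.7%. It was also 7 with TPM rescaled without short and ribosomal features (48.6% of detected genes), with TMM (34.7%) or DESeq2 (35.2%) size factors, and with no filter on low counts (37.1% of genes with a count). Dropping the filter could not change the count, because all 7 genes pass it. By gene-table and rescaled TPM replicate 2 was the lowest for 5 of the 7 genes and replicate 3 for the other 2. With TMM or DESeq2 size factors, and in the read-based table, these numbers were 4 and 3. Set against the mean of replicates 2 and 3 on the log2(TPM + 1) scale, which understates differences of low genes, replicate 1 lay 0.57 higher in the median gene, against 0.02 over all detected genes. The difference was 1.20 for Ms4a4c, 0.79 for Ms4a6d, 0.62 for Ms4a14, 0.57 for Ms4a6b and Ms4a6c, 0.39 for Ms4a7 and 0.34 for Ms4a4a. In the read-based table the difference of Ms4a6d was 0.32, and it was then below that of Ms4a14 (0.63), Ms4a6b (0.51), Ms4a7 and Ms4a6c (both 0.47). In gene-table TPM these are 2.30-fold for Ms4a4c, 1.76-fold for Ms4a6d, 1.53-fold for Ms4a14, 1.49-fold for Ms4a6c, 1.48-fold for Ms4a6b, 1.30-fold for Ms4a7 and 1.28-fold for Ms4a4a.

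Other gene lists differed in how far replicate 1 stood apart. The 10 interferon reference genes, led by the GTPase gene Mx1 at 2148 ± 703 TPM and ending with Isg15 at 60.5 ± 16.3 TPM (SD, n = 3), were highest in replicate 1 in 10 of 10 cases, with a median difference of 0.71 and a range of 0.15 to 1.21 on the log2(TPM + 1) scale. The 8 macrophage markers were highest there in 3 of 8 cases, with a median of 0.08 and a range of -0.25 to 0.60. Replicate 1 also began from more RNA (1 µg, against 250 ng and 500 ng in replicates 2 and 3), had the fewest counts, and had the largest share of counts in rows that name no gene, 1.24% against 0.482 and 0.228%. The amount of RNA, the depth and the library itself cannot be told apart with 3 libraries, and their part in the higher levels was not tested.

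**Figure D4:**
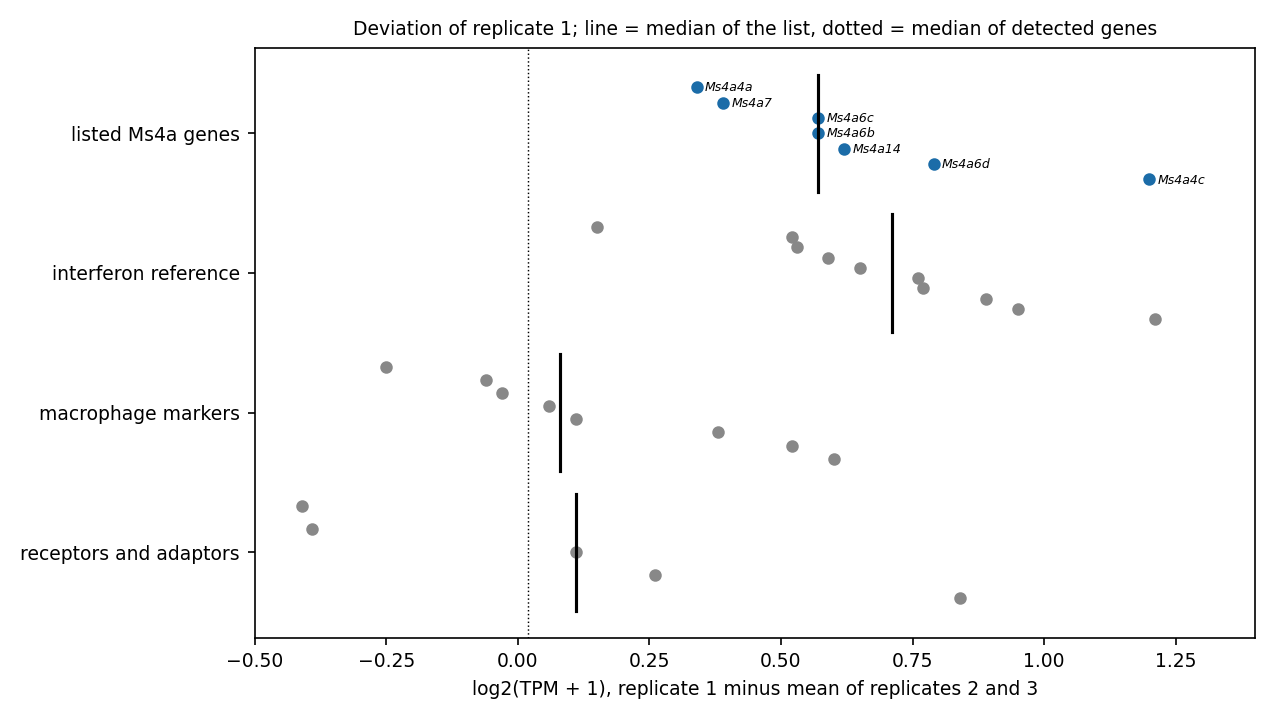
Difference between replicate 1 and the mean of replicates 2 and 3 on the log2(TPM + 1) scale, 1 point per detected gene, for the 7 listed genes and 3 other lists, with a line at each list's median and a dotted line at 0.02, the median of all detected genes. The 7 genes lie between 0.34 (Ms4a4a) and 1.20 (Ms4a4c), their median is 0.57, and the medians of the interferon reference, macrophage markers and receptors and adaptors are 0.71, 0.08 and 0.11.

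The spread of the 7 genes between libraries rested largely on replicate 1. The biological coefficient of variation, edgeR's estimate of the relative spread beyond counting noise, had a median of 0.183 over the 7 genes and 0.157 over all detected genes, whereas both medians were 0.176 by DESeq2. Ms4a4c had the largest at 0.25, above 90.4% of detected genes, followed by Ms4a6d at 0.220, and Ms4a7 had the smallest at 0.149. Without replicate 1 the median of the 7 genes was 0.101 and that of all detected genes 0.130. Both medians were 0.166 without replicate 2, and they were 0.191 and 0.190 without replicate 3. A clear excess of the 7 genes was thus seen only by edgeR with all 3 libraries, and they lay below all detected genes only without replicate 1.

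Receptors and adaptors that MS4A proteins are known to work with, or that share their pathways, did not move as one group. Syk, the kinase downstream of Dectin-1 and of Fc receptors, had 299, 248 and 253 TPM in replicates 1, 2 and 3. Fcer1g, the gamma chain of Fc receptors, had 175, 91.8 and 103 TPM, also highest in replicate 1. Trem2, a lipid-sensing receptor of macrophages and microglia, had 36.3, 37.5 and 61.2 TPM, and its adaptor gene Tyrobp 27.1, 22.3 and 27.9 TPM, both highest in replicate 3 in the gene table. In the read-based table Tyrobp was highest in replicate 1, at 73.4, 65.1 and 67.6 TPM, so that 3 of the 5 genes were highest there against 2 of 5 in the gene table. Clec7a, which encodes Dectin-1 and is annotated as a polymorphic pseudogene in GENCODE M21, had 9.25, 11.6 and 13.7 TPM, lowest in replicate 1. The 5 genes had at least 1 TPM in 5 of 5 cases, and their median difference between replicate 1 and the others was 0.11, with a range of -0.41 to 0.84 on the log2(TPM + 1) scale. Of the 5 alternative activation genes 2 were detected, Mrc1, the mannose receptor gene, being highest at 45.7 ± 8.75 TPM (SD, n = 3), while Chil3 was at 0 counts in each library, which allows up to 3.

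The detected protein-coding genes most like Ms4a7 in level and in pattern over the 3 libraries were Sp110, Irf7 and Vmp1, at Euclidean distances of 0.150, 0.150 and 0.151 on the log2(TPM + 1) scale. Irf7, a transcription factor of the type I interferon response, had 461, 299 and 341 TPM. The nearest to Ms4a14 were Cd274, which encodes PD-L1, at 0.0753, then Cflar at 0.175 and Slfn8 at 0.179. Cd274 had 302, 185 and 219 TPM, against 301, 176 and 218 TPM for Ms4a14. Of 11754 genes searched 6 lay within 0.2 of Ms4a7 and 3 within 0.2 of Ms4a14. These distances describe 3 libraries only.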

How the data were processed

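Total RNA of the chromatin fraction was measured in 3 libraries of 1 group. Per the file headers and the README files deposited with them, the tables use mm10 with GENCODE release M21. The authors' gene and alignment-based transcript tables hold expected counts and TPM, and the authors' deposited read-based transcript table holds estimated counts and TPM taken from the reads without alignment files. The tools behind them are not given in the sources used here. Rows that name no gene held 1.24, 0.482 and 0.228% of the expected counts in replicates 1, 2 and 3 and were left out. Read-based counts totalled 23135627, 30418666 and 40940944 and were summed per gene. Levels were TPM or log2(TPM + 1). The percent of a gene's TPM per transcript, which the authors deposited beside the TPM, was recomputed from the TPM of each table. Expected counts were rounded for edgeR 4.0.16 (dispersion with an intercept only, TMM) and DESeq2 1.42.0 in R 4.3.3, fitted on all detected genes. Other steps used Python 3.11.15. The dispersion step was tested on simulated data over 15873 genes with 200 of them raised 1.5-fold in replicate 1. Over the genes not raised, its median was 0.102, 0.2 and 0.399 for true values of 0.1, 0.2 and 0.4. The raised genes were left out of these medians. The step was therefore not tested for genes that are higher in replicate 1, as the 7 genes are. The genes named were the 7 listed ones, family genes with a mean count of at least 10 (8 at most), all 5 receptors and adaptors, the highest and lowest of the interferon reference and alternative activation lists, and the 3 nearest genes of the 2 highest members. Other genes named in the cluster and in the marker lists were chosen after their values were seen. The 7 genes and the lists were chosen with earlier results of these data known. Limits on counts cover counting error only. Alternatives changed the table, scaling, filter, pseudocount, threshold, tool or replicates.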

Additional observations from a re-analysis of the deposited data

How the results depend on the processing

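All 7 genes kept a mean of at least 1 TPM, and all 7 were highest in replicate 1, under each alternative run for them: the read-based table, TPM rescaled without short features and 3 ribosomal locus genes, TMM or DESeq2 size factors, no filter on low counts, a mean of 0.5 TPM and, for the 2 counts, leaving out replicates. Some of these alternatives could not have changed the 2 counts and are no support for them. Every one of the 7 genes passed the filter, exceeded 1 TPM in each library and was highest in replicate 1. The lower threshold, the missing filter and leaving out replicates therefore had a fixed outcome. The share of all detected genes highest in replicate 1 was 48.6% with rescaled TPM and 34.7% with TMM. The order kept 7 of 7 places except in the read-based table, which kept 5. Rescaling multiplies all 7 genes of a library by the same factor, and the order was the same in each library. Neither rescaling nor leaving out a replicate could therefore change it, and only the read-based table tested it. Leaving out 1 replicate gave a median biological coefficient of variation of 0.101 (without replicate 1) to 0.191 for the 7 genes. Of the values for single genes 102 moved by less than the spread between replicates, 17 moved by more and none changed sign. Many of the 102 had a fixed outcome and are no support. Leaving out 1 of 3 replicates cannot move a mean level or a mean share by as much as its SD. The leading-transcript shares of Ms4a4a and Ms4a14 could not move either, because each has 1 annotated transcript. The 17 were mean levels (5 in the read-based table and all 7 with rescaled TPM), 4 shares of the leading transcript and the difference of Ms4a6d in replicate 1 (0.32 in place of 0.79), the last 5 in the read-based table. All 7 mean levels moved with rescaled TPM by construction, through the common factor of each library. The summed level of the 7 genes was then 2655, 1595 and 1775 TPM in replicates 1, 2 and 3. The cause of the moves in the read-based table was not tested. Leaving out replicate 2 or 3 in the comparison of replicate 1 with the others was chosen after seeing the data. No paired analysis was possible because there is 1 group. Depth limits Ms4a4a most, with 202 to 268 expected counts.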
